A study of Mus musculus with 6 samples.

Results

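The nuclear genes for the respiratory chain after complex I were examined in mouse striatal progenitor cells: succinate dehydrogenase (complex II), the cytochrome bc1 complex (complex III), cytochrome c, cytochrome c oxidase (complex IV) and ATP synthase (complex V). Members were the protein-coding nuclear genes of the GENCODE vM21 annotation with the symbols Sdha to Sdhd, Cyc1 and Cycs, or with symbols that begin with Uqcr, Cox4 to Cox8 or Atp5. This rule gave 49 of 21911 genes, of which 4 belonged to complex II, 9 to complex III, 1 was cytochrome c, 18 belonged to complex IV and 17 to complex V. The rule used names and no measured value.

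H3K4me3 was profiled by ChIP-Seq in STHdh cells, conditionally immortalised mouse progenitors of the striatum, the brain region most damaged in Huntington's disease. Each genotype was a single line with C57BL/6 as its labelled strain, and all 6 conditions shared 24 hours in medium without serum. There was 1 deposited peak list per condition. Q7SST was the wild-type line with vehicle, spelled STHdh7 in the labels and STHdhQ7 by the study. Q111SST was mutant (STHdhQ111, expanded huntingtin) with vehicle. The other 4 were mutant cells given cyproheptadine, loxapine, DKI (diacylglycerol kinase inhibitor II) or meclizine at 10 uM. The study placed cyproheptadine and loxapine in one group of compounds (Group A) and DKI and meclizine in another (Group B), with bioenergetics among the processes it followed, so the state of these promoters across compounds is a question the design raises. No condition had a replicate list, so each difference below describes these lists and was not tested.

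The respiratory chain passes electrons from the Krebs cycle to oxygen and stores the energy as a proton gradient. Complex II takes electrons from succinate, complex III moves them from ubiquinol to cytochrome c, complex IV hands them to oxygen, and complex V lets protons back to make ATP. Neurons of the striatum depend on this supply, and several complex IV subunits exist as paired genes, one used in most cells and another used in muscle, testis or lung. H3K4me3, trimethylation of lysine 4 of histone H3, lies around the start sites of active and poised genes.

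A gene counted as marked in a list if any of its annotated starts had a peak within 1 kb. Strength was the percentile of the gene's strongest such peak among all peaks of the same list, with 100 as the strongest, because the scale of the deposited score between lists is unknown. Marked width was the length in bp of the peaks that reached the window. The 6 lists held 30758 peaks (DKI) to 45564 peaks (loxapine), read totals were not used here, and the depth behind each list is unknown. As a check of the labelled cell type, 3 to 6 of 8 neural progenitor markers were marked per list, with Vim and Dlx2 in all 6, against 0 to 2 of 5 markers of mature striatal neurons. Of 3 astrocyte markers, Slc1a2 was marked in 4 lists, and of 3 microglia markers, Aif1 was marked in Q7SST and Q111SST. No marker of oligodendrocytes, muscle or testis was marked, 0 of 3 for each in every list, and Msi1, a progenitor marker, was marked in none.

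Of the 49 members, 42 (85.7%, 95% Wilson interval 73.3% to 92.9%) were marked in all 6 lists, against a background of 52.3% of all protein-coding genes. In Q7SST 44 members were marked, beside 58.6% of all genes. The count was 42 in Q111SST (background 57.1%), and also 42 under cyproheptadine (54.1%), loxapine (56.9%), DKI (54.6%) and meclizine (57.3%). The same 42 genes made up each of the 5 mutant-cell counts, so by this rule no member was gained or lost in mutant cells with any compound. With a score of at least 47, the median over the peaks of all lists, Sdhb was lost under cyproheptadine and Sdhb and Atp5e under DKI. Where a peak had to cover a start, Cox4i1 and Cox5b were lost under cyproheptadine and Cox4i1 under loxapine, and Uqcrc1 was gained under DKI. The share of all genes gained or lost under either of these stricter rules was not computed, so these changes have no background here. A peak covered a start for 85.5% of all marked genes in Q111SST, 78.0% under cyproheptadine, 80.2% under loxapine and 81.6% under DKI. By the 1 kb rule the backgrounds of gained genes were 0.283% under cyproheptadine, 0.931% under loxapine, 0.256% under DKI and 0.949% under meclizine. Those of lost genes were 3.27%, 1.19%, 2.82% and 0.762% in the same order. Against Q111SST, Q7SST had 2 members more, a share of 4.08% beside a background of 3.51%, and none fewer beside 2.04%. Of these 2, only Cox6b2 was gained with a score of at least 47, and only Cox7a1 where a peak had to cover a start.

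The members without a mark in mutant cells were all in complex IV. Complexes II, III and V and cytochrome c were marked in full in every list, with 4 of 4, 9 of 9, 17 of 17 and 1 of 1 genes. Of the 18 complex IV genes, 11 were marked in each mutant-cell list and 13 in Q7SST. The 7 others were the 3 forms of heart and skeletal muscle (Cox6a2, Cox7a1 and Cox8b), the 3 forms of testis (Cox6b2, Cox7b2 and Cox8c) and Cox4i2, the form of lung and of low oxygen. These 7 are all of the tissue-restricted forms listed among the members.

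**Figure D1:**
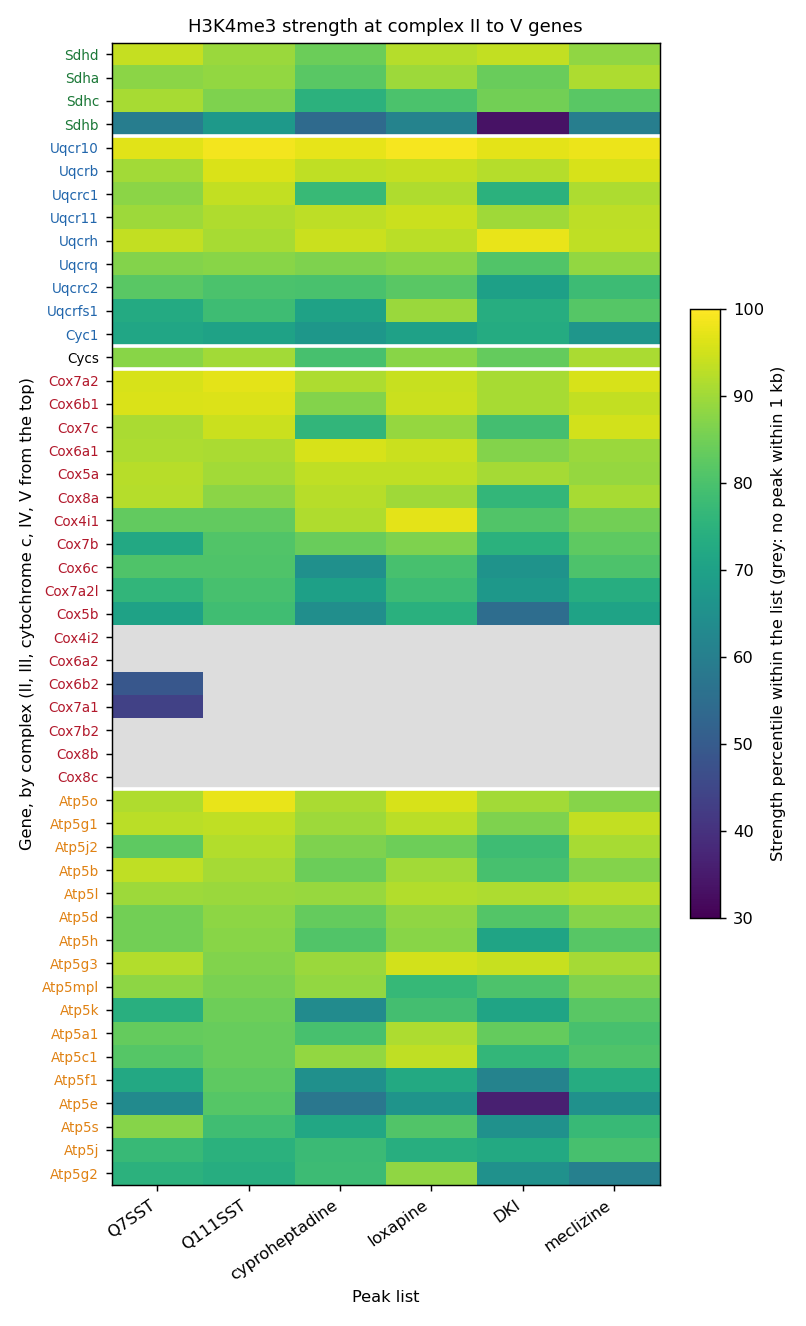
Heat map of H3K4me3 strength for the 49 members (rows, grouped by complex and ordered by Q111SST) in the 6 peak lists (columns). Colour gives the strength percentile within the list and grey means no peak within 1 kb. The grey block holds the 7 tissue-restricted complex IV genes, of which Cox6b2 and Cox7a1 have a value in Q7SST alone, and the darkest cells among the rest are Sdhb and Atp5e under DKI.

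The marked members carried strong peaks. In Q111SST their median strength percentile was 87.6, against 82.6 for all marked genes, and 29 of 42 lay above that all-gene median. Median strengths of members and of all marked genes were 87.1 and 80.4 in Q7SST, 83.7 and 79.5 under cyproheptadine, and 89.3 and 83.0 under loxapine. They were 80.0 and 75.8 under DKI, and 87.1 and 80.3 under meclizine. The members' median was thus the higher in each of the 6 lists, and 25 to 31 members lay above the all-gene median. All marked genes include those marked in only some lists. Over all genes marked in all 6 lists the medians were 82.4 in Q7SST, 84.3 in Q111SST and 80.0 under cyproheptadine. They were 84.3 under loxapine, 76.8 under DKI and 82.2 under meclizine, so the gaps to the members were smaller. A peak covered an annotated start for 41 of the 42 marked members in Q111SST (97.6%), where this held for 85.5% of all marked genes. Over the 6 lists this share was 92.9% to 100.0% for members and 78.0% to 87.0% for all marked genes. For all genes marked in all 6 lists it was 88.4% in Q111SST and 79.3% to 90.1% over the lists.

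Complex II oxidises succinate, and its 4 genes had a wide spread of strength. Sdhd, a membrane anchor that holds ubiquinone, had percentiles of 93.9 in Q7SST, 89.4 in Q111SST, 84.3 under cyproheptadine, 92.1 under loxapine, 93.6 under DKI and 88.3 under meclizine. Sdha, the flavoprotein that binds succinate, lay between 82.2 under cyproheptadine and 91.3 under meclizine, and was at 88.6 in Q111SST. Sdhc, the other anchor, lay between 74.9 under cyproheptadine and 90.9 in Q7SST. These 3 genes stayed in the upper part of every list. Sdhb, the iron-sulphur subunit, was at 59.6 in Q7SST, 67.6 in Q111SST, 54.2 under cyproheptadine, 61.4 under loxapine, 33.5 under DKI and 59.9 under meclizine. It was the weakest of the 42 members marked in every list in each of the 6 lists. Its deposited score ran from 31 under DKI to 71 in Q111SST, yet its peak was among the wider ones, at 2127 to 2415 bp.

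The promoters of Sdha and Sdhb are shown as those of a strong gene and of the weakest gene of complex II. Each window holds 250 bases before and 50 after the RefSeq start on GRCm38.p6, for Sdha chr13:74350191-74350490, minus strand, and for Sdhb chr4:140961021-140961320, plus strand. Capitals mark matches, on either strand, to the core letters of 5 known promoter motifs, counted separately also where they overlap. The NRF1 motif was GCGCA, any base, and then GCGC. The ETS letters were CCGGAAG, and those of YY1 were AAGATGGC. For SP1, which binds GC boxes, the letters were GGGCGG, and for the TATA box the search was for TATAAA.
Sdha: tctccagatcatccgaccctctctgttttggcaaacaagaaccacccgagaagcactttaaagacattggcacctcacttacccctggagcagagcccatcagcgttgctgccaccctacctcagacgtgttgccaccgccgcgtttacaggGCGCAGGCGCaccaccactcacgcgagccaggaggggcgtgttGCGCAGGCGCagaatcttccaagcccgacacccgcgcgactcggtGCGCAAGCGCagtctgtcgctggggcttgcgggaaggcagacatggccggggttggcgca
Sdhb: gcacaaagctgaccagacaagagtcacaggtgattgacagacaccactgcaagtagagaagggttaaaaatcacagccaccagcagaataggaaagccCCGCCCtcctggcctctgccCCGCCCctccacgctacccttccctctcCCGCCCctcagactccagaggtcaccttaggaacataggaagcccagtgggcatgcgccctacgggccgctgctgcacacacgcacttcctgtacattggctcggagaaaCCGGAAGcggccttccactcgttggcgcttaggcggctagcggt
Sdha held 3 NRF1 matches and 25 CpG dinucleotides, and Sdhb held 3 SP1 matches, 1 ETS match and 15 CpG.

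Complex III held the member with the highest median strength over the lists. Uqcr10, a small subunit, had percentiles of 96.8 in Q7SST, 98.7 in Q111SST, 97.4 under cyproheptadine, 99.0 under loxapine, 97.1 under DKI and 97.9 under meclizine. Its range of 2.22 points was the smallest among the 42. The small subunits Uqcrb, Uqcr11 and Uqcrh, the last a hinge protein near cytochrome c1, also stayed high, with medians over the lists of 93.5, 92.3 and 93.4. Uqcrq, another small subunit, had a median of 87.3, below the 89.5 of the core subunit Uqcrc1. Cyc1, which encodes cytochrome c1 and gives electrons to cytochrome c, was the lowest of the complex in Q111SST, at 70.2, and lay between 66.7 under meclizine and 73.2 under DKI. Uqcrfs1, the Rieske iron-sulphur protein, was at 78.3 in Q111SST and ran from 70.3 under cyproheptadine to 89.6 under loxapine. Uqcrc1, a core subunit singled out after its values were seen, ran from 74.8 under DKI and 77.1 under cyproheptadine to 93.7 in Q111SST.

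The Uqcr10 promoter, the window of the member with the highest median (chr11:4704295-4704594, minus strand, GRCm38.p6), held no match to any of the 5 motifs.
Uqcr10: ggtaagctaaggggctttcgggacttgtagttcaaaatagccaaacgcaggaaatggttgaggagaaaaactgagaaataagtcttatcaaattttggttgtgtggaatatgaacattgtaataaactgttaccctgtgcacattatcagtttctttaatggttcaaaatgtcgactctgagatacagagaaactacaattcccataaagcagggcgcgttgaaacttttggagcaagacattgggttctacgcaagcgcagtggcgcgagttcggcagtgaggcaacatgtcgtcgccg
It was 43.3% G and C with 13 CpG. No match says only that these letters are not in this window.

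Cytochrome c, the shuttle between complexes III and IV, is encoded by Cycs in somatic cells. Its percentiles were 87.6 in Q7SST, 90.3 in Q111SST, 79.5 under cyproheptadine, 87.5 under loxapine, 83.6 under DKI and 91.1 under meclizine. The cyproheptadine value differed from Q111SST by -10.72 points and was the lowest of the 6.

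In complex IV the split between forms was sharp. Cox7a2, the form of most tissues, had percentiles of 95.7 in Q7SST, 97.1 in Q111SST, 91.4 under cyproheptadine, 94.2 under loxapine, 90.7 under DKI and 95.8 under meclizine. Its muscle partner Cox7a1 had 43.4 in Q7SST and no peak in the 5 other lists. Cox6b1 had 96.0, 96.3, 87.1, 94.3, 90.7 and 93.5 in the same order of lists, while its testis partner Cox6b2 had 49.1 in Q7SST alone. Both Q7SST peaks were thus below the middle of that list. Cox6a1 lay between 86.9 and 95.7, Cox7b between 72.3 and 86.5, and Cox8a between 76.3 and 92.5, whereas Cox6a2, Cox7b2, Cox8b and Cox8c had no peak in any list. Cox4i1, the largest nuclear subunit, was at 83.2 in Q111SST, and Cox4i2 had no peak.

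The Cox7a1 peak in Q7SST ran over chromosome 7, 30183860 to 30184349 on GRCm38. It was 490 bp wide, had a score of 43 where the list's median was 50, and covered the start of the gene, with 284 bp outside the gene, 196 bp in exon and 10 bp in intron. In the mutant-cell lists the nearest peak was 9419 to 9485 bp away. The Cox6b2 peak ran over chromosome 7, 4751832 to 4752528, was 697 bp wide with a score of 49, and lay inside the gene, 444 bp from the nearest annotated start, over 330 bp of exon and 367 bp of intron. The nearest peaks of the mutant-cell lists were 11412 to 11684 bp from a Cox6b2 start. Among all genes, 605 (2.76%) were marked in Q7SST and in no other list, and 2 of the 49 members (4.08%) were among them. For the 5 genes without any mark, the nearest peak over the 6 lists was 15123 to 16422 bp from a start of Cox4i2 and 30649 to 30893 bp from Cox6a2. It was 8291 to 17473 bp from Cox8b and 19900 to 20173 bp from Cox8c. For Cox7b2 it was 109684 bp away in Q7SST and at least 345607 bp in the mutant-cell lists.

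The promoters of 3 such pairs are shown because the deposited marks separate them. On GRCm38.p6 the windows are Cox7a1 at chr7:30183921-30184220, plus strand, Cox7a2 at chr9:79759804-79760103, minus strand, Cox6b2 at chr7:4753045-4753344, minus strand, Cox6b1 at chr7:30626065-30626364, minus strand, Cox8b at chr7:140900397-140900696, minus strand, and Cox8a at chr19:7217567-7217866, minus strand. Capitals mark the same motifs as above.
Cox7a1: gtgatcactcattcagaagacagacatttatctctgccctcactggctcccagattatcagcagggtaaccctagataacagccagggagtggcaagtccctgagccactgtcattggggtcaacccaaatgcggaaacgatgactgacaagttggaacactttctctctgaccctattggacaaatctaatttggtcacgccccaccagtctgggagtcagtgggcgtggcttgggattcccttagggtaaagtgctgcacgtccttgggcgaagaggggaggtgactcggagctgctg
Cox7a2: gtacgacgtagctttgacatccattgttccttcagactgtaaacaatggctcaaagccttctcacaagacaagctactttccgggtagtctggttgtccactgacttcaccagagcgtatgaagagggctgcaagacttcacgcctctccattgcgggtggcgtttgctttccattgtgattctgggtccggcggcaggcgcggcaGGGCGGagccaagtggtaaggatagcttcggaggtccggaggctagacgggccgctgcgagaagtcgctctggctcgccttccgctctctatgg
Cox6b2: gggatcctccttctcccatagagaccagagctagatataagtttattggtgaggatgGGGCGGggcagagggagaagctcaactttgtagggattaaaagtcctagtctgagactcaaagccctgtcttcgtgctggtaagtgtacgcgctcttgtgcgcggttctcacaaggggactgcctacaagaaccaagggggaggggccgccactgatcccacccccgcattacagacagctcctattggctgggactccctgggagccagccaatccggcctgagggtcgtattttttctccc
Cox6b1: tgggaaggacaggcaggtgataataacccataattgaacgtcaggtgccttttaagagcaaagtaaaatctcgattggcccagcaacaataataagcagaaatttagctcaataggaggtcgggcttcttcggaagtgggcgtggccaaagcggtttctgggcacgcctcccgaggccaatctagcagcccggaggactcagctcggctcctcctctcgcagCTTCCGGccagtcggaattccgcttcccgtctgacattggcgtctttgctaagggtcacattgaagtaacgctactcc
Cox8b: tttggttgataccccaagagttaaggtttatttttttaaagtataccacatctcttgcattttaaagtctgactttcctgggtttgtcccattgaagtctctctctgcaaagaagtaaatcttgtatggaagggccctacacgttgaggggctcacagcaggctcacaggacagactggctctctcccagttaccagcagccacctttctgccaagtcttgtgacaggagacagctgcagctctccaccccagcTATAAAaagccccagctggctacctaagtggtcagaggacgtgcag
Cox8a: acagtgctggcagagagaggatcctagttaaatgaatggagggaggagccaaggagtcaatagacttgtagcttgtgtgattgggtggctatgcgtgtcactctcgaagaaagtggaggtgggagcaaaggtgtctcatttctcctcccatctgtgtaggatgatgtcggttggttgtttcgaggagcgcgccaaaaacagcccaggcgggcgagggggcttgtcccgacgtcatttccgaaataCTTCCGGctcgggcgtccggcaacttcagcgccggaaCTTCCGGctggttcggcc
The windows of the forms used in most tissues held 20 (Cox7a2), 17 (Cox6b1) and 19 (Cox8a) CpG, and those of the restricted forms 7 (Cox7a1), 10 (Cox6b2) and 2 (Cox8b). Cox7b and Cox7b2, a pair not shown that the marks also separate, ran the other way. Cox7b, marked in all 6 lists, held 5 CpG and the restricted Cox7b2 held 10. Cox8b held a TATA match, Cox8a 2 ETS matches and Cox6b1 1 ETS match, while Cox7a2 and the restricted form Cox6b2 held 1 SP1 match each.

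The 2 weakest marked genes of complex IV in Q111SST were Cox5b, at 78.6, and Cox7a2l, a factor that joins complexes III and IV into supercomplexes, at 79.7. Cox5b, a subunit that faces the matrix, was at 70.2 in Q7SST, 64.5 under cyproheptadine, 74.4 under loxapine, 55.1 under DKI and 70.7 under meclizine. Cox7a2l was at 76.0, 69.7, 77.9, 67.4 and 73.7 in those lists. Both were highest in Q111SST and lowest under DKI. Cox7c, a small subunit, was at 91.1 in Q7SST, 94.5 in Q111SST and 95.1 under meclizine, but at 76.0 under cyproheptadine and 79.2 under DKI.

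All 17 complex V genes were marked in every list, so the members of the F1 head, the stalks and the c-ring could be compared throughout. Atp5o, the stalk protein that confers oligomycin sensitivity, was highest in Q111SST at 97.7 and lay between 87.2 under meclizine and 95.8 under loxapine elsewhere. Of the 3 genes that encode the same mature c-ring protein, Atp5g1 lay between 86.6 and 93.5, Atp5g3 between 86.8 and 95.1, and Atp5g2 between 60.4 and 88.3. The catalytic beta subunit, Atp5b, lay between 79.6 under DKI and 93.4 in Q7SST. Atp5a1, the alpha subunit, lay between 79.5 under meclizine and 91.5 under loxapine. The head subunits thus kept to the upper part of each list, while the c-ring genes differed among themselves.

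Atp5e, the epsilon subunit of the central stalk, varied most. It had percentiles of 63.5 in Q7SST, 81.6 in Q111SST, 57.7 under cyproheptadine, 66.2 under loxapine, 36.1 under DKI and 65.3 under meclizine. Its deposited scores were 71, 108, 49, 69, 33 and 81 in the same order. Q111SST was the highest and DKI the lowest, a range of 45.5 points, while its width lay between 1095 and 1408 bp. The Atp5e window (chr2:174464052-174464351, minus strand, GRCm38.p6) is shown as that of the most variable member.
Atp5e: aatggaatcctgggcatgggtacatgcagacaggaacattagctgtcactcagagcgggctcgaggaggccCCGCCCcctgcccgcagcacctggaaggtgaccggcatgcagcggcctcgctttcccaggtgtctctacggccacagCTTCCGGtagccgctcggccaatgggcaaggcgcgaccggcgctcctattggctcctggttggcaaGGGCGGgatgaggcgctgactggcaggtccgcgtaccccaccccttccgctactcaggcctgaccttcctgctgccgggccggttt
It held 22 CpG, 2 SP1 matches and 1 ETS match.

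Changes in strength were taken as each list minus Q111SST, in percentile points, over the 42 members marked in both. All 5 comparisons share the Q111SST list, so a value that was high there lowers all 5 changes. The median change of members was -0.74 points in Q7SST, against -1.05 for all genes marked in both lists. Under cyproheptadine it was -4.85 against -3.79, under loxapine -0.16 against -0.39, under DKI -6.69 against -6.68 and under meclizine -1.13 against -1.56. On this scale the members' medians differed from those of all genes by less than 2 points in each comparison, and with the percentile taken among the strongest peaks of marked genes, or with a stricter score, the gaps under cyproheptadine and DKI were wider. On the first of these scales the medians were -5.96 points under cyproheptadine (all genes -2.60) and -4.79 under DKI (all genes -2.48). With a score of at least 47 they were -11.98 (all genes -7.87) and -12.34 (all genes -8.93). The sign turned on both scales for Q7SST, at 0.39 points (all genes 0.73) and 0.19 points (all genes 0.34). It also turned for meclizine, at 0.46 points (all genes -0.15) and 1.23 points (all genes 0.86), and with the stricter score for loxapine, at 0.80 points (all genes 0.34). A percentile depends on how many weak peaks a list holds. When each list was cut to its strongest 30758 peaks, the median under cyproheptadine was -2.52 points (all genes -1.10). The median under DKI was then -2.91 points (all genes -1.86) and that under loxapine was -2.17 points (all genes -2.63).

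**Figure D2:**
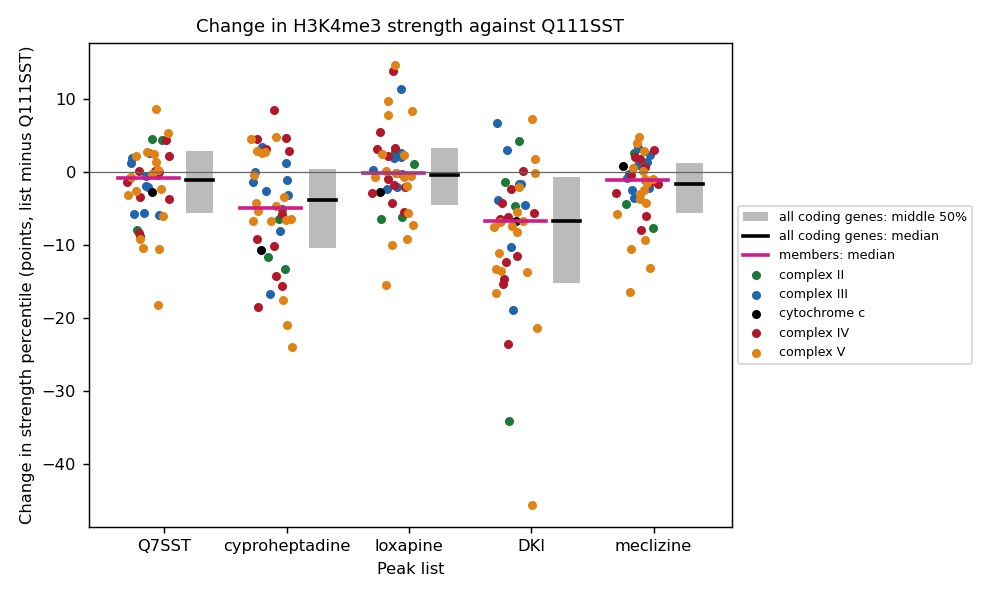
Change in strength percentile from Q111SST (vertical axis, points) of the 42 members marked in every list, for each of the other 5 lists (horizontal axis); points are genes, coloured by complex, with the members' median beside the median and middle 50% of all genes marked in both lists. On this scale the members' medians lie near the all-gene medians, from -0.16 under loxapine to -6.69 points under DKI, and the lowest point is Atp5e under DKI.

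A change of 10 points or more was counted as past the limit. In Q7SST no member was higher by the limit (background 8.68%) and 3 of 42 were lower (background 12.9%). Those 3 were Atp5e, Atp5k and Atp5f1, at -18.13, -10.51 and -10.33 points. The largest increases were below it, at 8.64 points for Atp5s, 5.28 for Atp5g3 and 4.59 for Sdhd. All 6 of these but Sdhd belong to complex V. Atp5k is a small membrane subunit, Atp5f1 a subunit of the outer stalk, and Atp5s a coupling factor. With the stricter score 6 members were higher by the limit (all genes 20.6%) and 7 lower (17.2%).

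Under cyproheptadine 11 of 42 members were lower by the limit, a share of 26.2% beside a background of 26.1%, and 0 were higher beside 3.46%. The lowest were Atp5e at -23.96 points, Atp5k at -20.90 and Cox7c at -18.51. The highest were Cox4i1 at 8.47 points, Atp5c1, the gamma subunit of the central stalk, at 4.84 and Cox8a at 4.66. All 4 complex II genes were lower than in Q111SST, with changes from -13.32 to -5.09 points, where 72.4% of all genes were lower. With equal list sizes 7 members were lower by the limit (all genes 17.3%) and 2 higher (9.95%), and with the stricter score 23 of 41 were lower (44.7%) and 1 higher (8.60%).

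Under loxapine 3 members were higher by the limit, beside a background of 6.81%: Atp5g2 by 14.70 points, Cox4i1 by 13.82 and Uqcrfs1 by 11.31. Atp5e alone was lower, at -15.41 points, beside a background of 9.59%. Atp5f1 at -9.94 points and Atp5mpl, a small proteolipid subunit, at -9.11 came next. In all, 19 members were higher (45.2%) and 23 were lower, where 46.4% of all genes were higher. With equal list sizes the counts were 5 higher (all genes 6.62%) and 7 lower (22.5%), and with the stricter score 7 higher (20.1%) and 7 lower (16.6%).

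Under DKI 15 of 42 members were lower by the limit, 35.7% beside a background of 39.1%, and 0 were higher beside 3.51%. The lowest were Atp5e at -45.52 points, Sdhb at -34.04 and Cox5b at -23.55. In all, 36 members were lower and 6 were higher, led by Atp5g3 at 7.27 points, Uqcrh at 6.67 and Sdhd at 4.21. Of all genes, 78.6% were lower under DKI and 21.4% were higher. With equal list sizes 8 members were lower by the limit (all genes 21.7%) and 2 were higher (11%), and with the stricter score 23 of 40 were lower (47.4%) and 2 higher (9.98%).

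Under meclizine, the other Group B compound, 3 of 42 members were lower by the limit beside a background of 10.1%, and 0 were higher beside 4.07%. They were Atp5e at -16.36 points, Atp5g2 at -13.11 and Atp5o at -10.50. With the stricter score 3 were higher (all genes 18.2%) and 4 lower (10.8%). The largest increases were 4.83 points for Atp5j, a subunit of the outer stalk, 3.92 for Atp5g3 and 3.27 for Uqcrfs1. Atp5e was the lowest member in all 5 comparisons, which all rest on its single Q111SST value of 81.6.

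Across the 6 lists the median range of a member was 12.1 points, against 14.5 over the 11455 genes marked in all lists. A range of 20 points or more was found for 7 of 42 members (16.7%) and for 31.7% of those genes. The 7 were Atp5e, Sdhb, Atp5g2, Cox5b, Atp5s, Atp5f1 and Atp5k. Of these, 5 belong to complex V and none to complex III. The lowest of a member's 6 percentiles came from DKI for 20 of 42 members (47.6%, all genes 45.2%) and from cyproheptadine for 10 (23.8%, all genes 22.3%).

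Marked width differed most under DKI. The median width of marked members was 1942 bp in Q7SST, 1913 bp in Q111SST, 1823 bp under cyproheptadine, 1917 bp under loxapine, 1620 bp under DKI and 1851 bp under meclizine. All marked genes had medians of 1804, 1893, 1649, 1825, 1543 and 1750 bp in the same order. DKI gave the narrowest peak for 33 of 42 members (78.6%), and for 57.0% of the genes marked in all lists. Against Q111SST, 40 members were narrower under DKI and 2 were wider, Atp5d, the delta subunit, and Uqcrq, where 92.9% of all genes were narrower. The median ratio of width to Q111SST was 0.87 under DKI (all genes 0.83), 0.94 under cyproheptadine (0.88), 0.95 under meclizine (0.94), 0.99 in Q7SST (0.97) and 1.01 under loxapine (0.99).

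The side on which peaks differed was read from the 36 members whose peak covered the principal start in all 6 lists. Their peaks reached a median of 671.5 bp upstream and 1145 bp downstream in Q111SST, and 576.5 bp and 995 bp under DKI. Gene by gene, the median difference under DKI was -45 bp upstream and -170 bp downstream, so the downstream edge lay closer to the start by more. Over 7533 genes of the same kind these were -62 and -193 bp. In Q111SST 32 of the 36 members reached further downstream than upstream (88.9%), as did 78.8% of those genes.

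A width ratio of 1.5 or more was rare among members. None was wider by that much in any list (backgrounds 5.14% in Q7SST, 0.424% under cyproheptadine, 1.87% under loxapine, 0.723% under DKI and 2.45% under meclizine). Narrower by that much were 1 member in Q7SST (background 5.72%), 3 under cyproheptadine (15.3%), 2 under loxapine (6.33%), 2 under DKI (18.2%) and 0 under meclizine (3.98%). They were Atp5g2 in Q7SST and under cyproheptadine, loxapine and DKI, Cox4i1 under cyproheptadine and loxapine, and Atp5mpl under cyproheptadine and DKI.

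At Atp5g2 the mark lay at a start 3378 bp upstream of the principal one, and no peak reached the principal start in any list. A single peak of 4300 bp in Q111SST and 4166 bp under meclizine spanned this start, from 2162 and 2357 bp to 6461 and 6522 bp upstream of the principal start, and Q7SST had one of 2836 bp. Under cyproheptadine, loxapine and DKI the peak at the start was 1528, 1763 and 1460 bp wide. A separate peak of 1449, 1542 and 1721 bp lay further upstream, outside the 1 kb window of the starts used. The gene record itself has its 5' end further upstream than these starts, at 102672352 on chromosome 15. The separate peaks began near that end, at 102672779, 102672749 and 102672502. The lower width of Atp5g2 in these 3 lists thus counts 1 of 2 pieces. At Cox4i1 a single peak crossed the start in Q7SST (2849 bp), Q111SST (2892 bp), DKI (2186 bp) and meclizine (2518 bp). In both Group A lists there were 2 peaks with a gap over the start. Under cyproheptadine they lay 1497 to 468 bp upstream and 467 to 1003 bp downstream, and under loxapine 1516 to 499 bp upstream and 467 to 1085 bp downstream. The upstream peak, on the side of the opposed gene Emc8 whose start is 101 bp away, had the higher score, 117 against 86 under cyproheptadine and 185 against 97 under loxapine. The higher percentile of Cox4i1 in these lists is therefore a value of the upstream peak. Among all marked genes a peak covered a start for 78.0% under cyproheptadine and 80.2% under loxapine, against 85.5% in Q111SST.

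**Figure D3:**
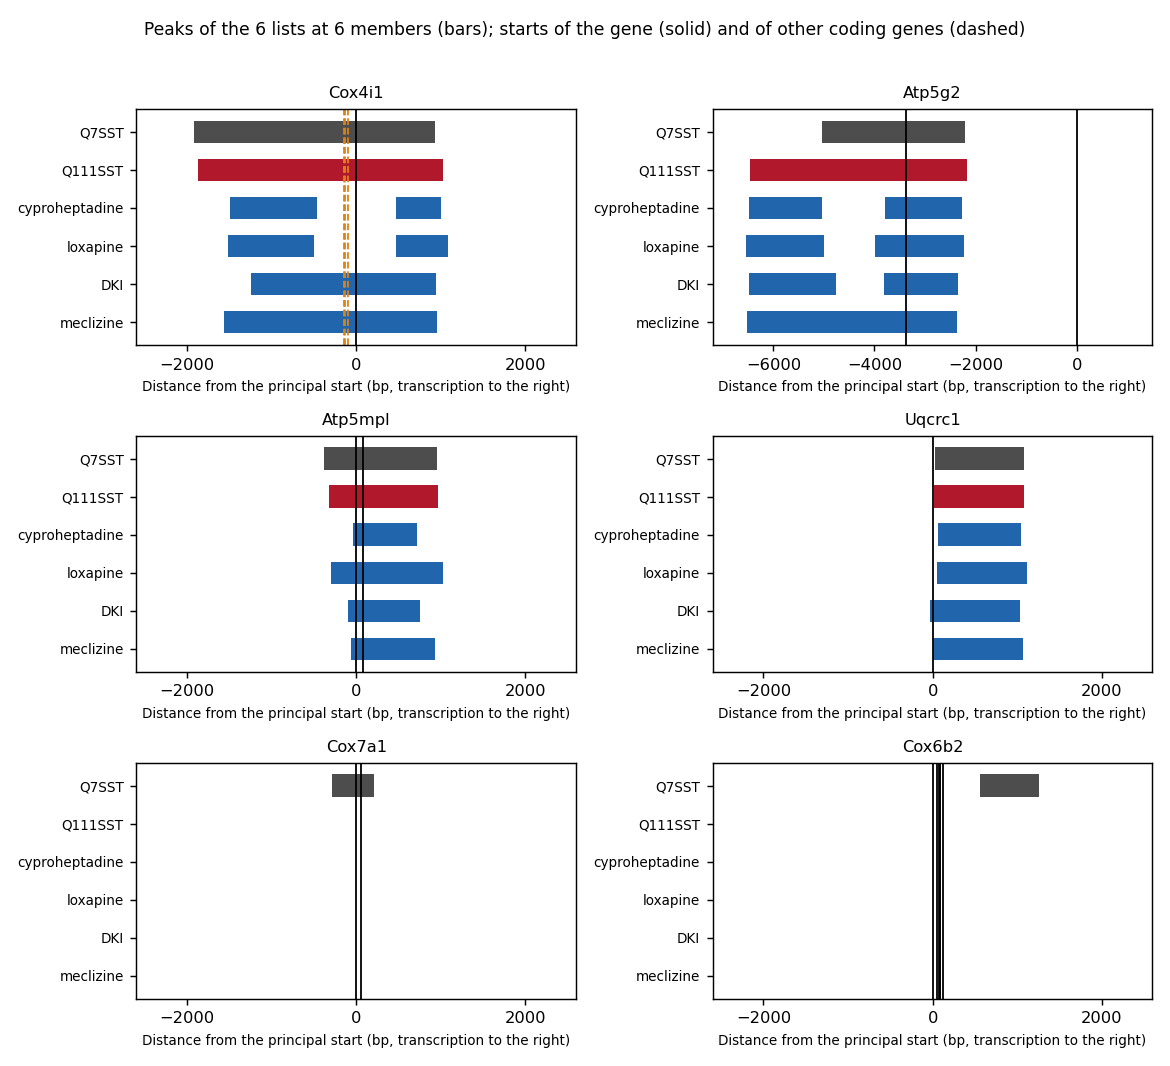
Peaks of the 6 lists (bars; rows are lists) at 6 members, drawn by distance from the gene's principal start in bp (horizontal axis) with transcription to the right; solid lines are starts of the gene and dashed lines starts of other coding genes. Cox4i1 has a gap over its start under cyproheptadine and loxapine, the long Atp5g2 peak of Q111SST and meclizine is in 2 pieces under cyproheptadine, loxapine and DKI, and Cox7a1 and Cox6b2 have a peak in Q7SST alone.

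Atp5mpl was 1295 bp wide in Q111SST, 1329 bp in Q7SST and 1324 bp under loxapine, but 756 bp under cyproheptadine, 857 bp under DKI and 999 bp under meclizine. Here a single peak covered the start in all 6 lists and reached 323 bp upstream in Q111SST and 35 bp under cyproheptadine. At Uqcrc1 the peak began 9 to 66 bp after the start in 5 lists and covered the start under DKI alone, where it began 31 bp before it. The Cox5b peak under cyproheptadine began 79 bp after its start and covered it in the other lists.

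A RefSeq promoter window was found for 37 of the 49 members. The members without an entry were Atp5a1, Atp5mpl, Cox4i1, Cox4i2, Cox6a2, Cox6c, Cox8c, Cyc1, Sdhc, Uqcrb, Uqcrc2 and Uqcrq. CpG dinucleotides, which are rare in most of the genome and dense at many promoters used in all tissues, were counted in each window. The ratio of observed to expected CpG had a median of 0.85 in the 33 members marked in all 6 lists, against 0.79 in the 9146 promoters of all such genes. In the 4 members with a mark in no list or in Q7SST alone it was 0.11 (Cox8b), 0.33 (Cox7a1), 0.43 (Cox6b2) and 0.56 (Cox7b2), against a median of 0.20 in the promoters of genes without any mark. The ratios overlapped between these members, because Cox7b, marked in all 6 lists, had 0.37 with 5 CpG.

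**Figure D4:**
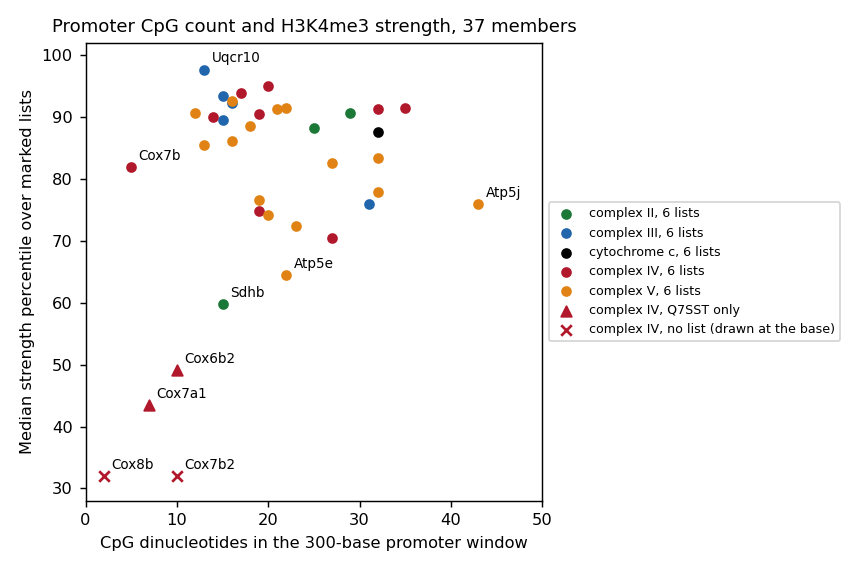
CpG dinucleotides in the 300-base promoter window (horizontal axis) against the median strength percentile over the lists in which the gene was marked (vertical axis) for 37 members, coloured by complex. The restricted complex IV forms (triangles in Q7SST alone, crosses at the base for no list) lie at 2 to 10 CpG, while among genes marked in 6 lists the count runs from 5 (Cox7b) to 43 (Atp5j).

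The NRF1 letters were found in 9 of 37 member windows (24.3%), against 6.88% of all 16756 windows. All 9 were among the 33 members marked in 6 lists (27.3%), against 11.6% of the windows of all such genes. ETS matches were found in 11 of the 33 (33.3%, against 20.0%). NRF1 and the ETS factor GABP are known regulators of respiratory genes. Of the same 33 windows, YY1 matches were in 2 (6.06%, against 5.11%), SP1 matches in 13 (39.4%, against 68.3%) and a TATA match in 1 (3.03%, against 6.80%). Some windows lay away from the principal start of the gene. The RefSeq starts of the YY1 windows, Atp5f1 and Atp5j2, were 836 and 521 bp downstream of it, and that of Atp5g2 was at -3298 bp, near its marked start. Of the 4 windows of members marked in no list or in Q7SST alone, 2 held an SP1 match and 2 a TATA match. The members with NRF1 letters were Sdha, Sdhd, Uqcrc1, Cox6a1, Atp5g2, Atp5g3, Atp5h, Atp5k and Atp5o. None of them was a restricted form, and the matches are descriptions of sequence, not of binding.

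Many members shared a promoter region with another gene. A start of another coding gene on the opposite strand lay within 1 kb for 12 of 49 members (24.5%) and for 9.0% of all genes. Among genes marked in all 6 lists these shares were 28.6% of members and 16.2%. The pairs included Sdha with Ccdc127, Sdhd with Timm8b, Uqcr10 with Zmat5, Uqcrb with Gm10767, Uqcrh with Lrrc41, Cox4i1 with Emc8, Atp5a1 with Haus1, Atp5c1 with Kin, Atp5h with Kctd2, and Atp5j with Gabpa. In these pairs the starts were 29 bp (Sdha) to 686 bp (Atp5j) apart, and each of these neighbours was marked in all 6 lists. Gabpa encodes the DNA-binding subunit of GABP, and Timm8b a chaperone of the mitochondrial import system. A peak at such a start cannot be assigned to one gene of the pair.

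Related gene groups were compared with the members. Of 46 complex I subunit genes, 45 were marked in every list (97.8%, against 85.7% of members), with a median strength of 89.1 in Q111SST and a median change of -6.14 points under DKI and -6.37 under cyproheptadine. Of 34 assembly factors for complexes II to V, which insert haem, copper and iron-sulphur centres or help subunits join, 33 were marked in all 6 lists (97.1%). The exception was Sdhaf1, which helps fit iron-sulphur clusters into Sdhb. It had percentiles of 82.0 in Q7SST, 79.0 in Q111SST, 80.4 under loxapine and 71.0 under DKI, and no peak within 1 kb under cyproheptadine or meclizine. Assembly factors had a median strength of 90.0 in Q111SST and a median change of -3.73 points under DKI, where the members' was -6.69.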

How the data were processed

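The authors crosslinked the cells, cut chromatin with micrococcal nuclease, precipitated it with an anti-H3K4me3 antibody and sequenced single-end reads. The submitters' processing notes name Trimmomatic 0.36, Bowtie2, SAMtools 1.3, MACS2 and the build mm10, with no settings or input control. The design text mentions triplicates, and whether they were pooled is not stated. Each deposited list gives peak positions and a whole-number score whose scale is not stated. Scores were therefore used as ranks within a list, except in the stricter-score alternative, where a common threshold was applied to all lists. Scores quoted for single genes are as deposited and are not known to share a scale between lists. No peak lay beyond the end of any of 21 GRCm38 chromosomes.

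Starts of all transcripts of protein-coding genes were taken from the GENCODE vM21 basic annotation, with genes of 1 symbol counted once. Groups came from the sample labels. No read totals were used, and Wilson intervals cover counting error only. The script was tested on the Q111SST list itself, with peaks planted at genes far from any peak and single peaks over a start removed. Over 21911 genes, 200 of 200 planted gains and 200 of 200 removed peaks were recovered. Only clear marked calls were tested so, not strength, width or borderline peaks. Promoter windows were RefSeq's for GRCm38.p6, of which 2 were matched by synonym.

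The members and lists were chosen with earlier results of these data known. Named genes were members marked in fewer than 6 lists, the 2 highest and 2 lowest of each complex in Q111SST, the 3 largest rises and falls and the 2 largest width changes either way per list, and the paired tissue forms. Other genes named were chosen after their values were seen, and some neighbouring genes are not reported here. Alternatives were equal list sizes, a stricter score, other windows, starts, limits and percentile scales, merged peaks and strongest-peak width. A wider annotation was added after seeing the data. Figures and tables were made with matplotlib 3.10.9, scipy 1.17.1, pandas 2.3.3 and numpy 2.4.6 in Python 3.11.15.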

Additional observations from a re-analysis of the deposited data

How the results depend on the processing

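Of 272 values recomputed under the alternatives, 232 stayed within 1.5 times the reported count or within the 95% interval of the reported median over members, and 40 did not. The number of marked members was 39 to 44 per list under all of them. No value passed these bounds with a window of 5 kb, the 5' end of the gene alone, merged peaks, strongest-peak width or the comprehensive annotation. With the strongest 30758 peaks of each list, members higher by 10 points numbered 1 in Q7SST (all genes 12%), 2 under cyproheptadine (9.95%), 5 under loxapine (6.62%) and 2 under DKI (11%), members lower by it 7 (17.3%), 7 (22.5%) and 8 (21.7%) with those 3 compounds, and the median change was -2.52 points under cyproheptadine, -2.17 under loxapine and -2.91 under DKI. With a score of at least 47, members gained in Q7SST fell to 1, and 1 member was lost under cyproheptadine (Sdhb) and 2 under DKI (Sdhb and Atp5e). The share of all genes gained or lost at this score was not computed. The median changes were then 0.19 points in Q7SST (all genes 0.34), -11.98 under cyproheptadine (-7.87), 0.80 under loxapine (0.34), -12.34 under DKI (-8.93) and 1.23 under meclizine (0.86). Members higher by the limit were 6 in Q7SST (all genes 20.6%), 1 under cyproheptadine (8.60%), 7 under loxapine (20.1%), 2 under DKI (9.98%) and 3 under meclizine (18.2%), and members lower by it 7 (17.2%), 23 (44.7%), 7 (16.6%) and 23 (47.4%) in the first 4. Where a peak had to cover a start, 1 member was gained in Q7SST and 1 under DKI. Under that rule 2 were lost under cyproheptadine and 1 under loxapine, which follows from peaks that lie beside a start. The share of all genes gained or lost under that rule was not computed either. Percentiles taken among strongest peaks of marked genes gave median changes of 0.39 points in Q7SST and 0.46 under meclizine, so that the sign of these small medians depends on the scale. With a limit of 5 points, members higher were 2 in Q7SST (all genes 17.7%), 1 under cyproheptadine (9.54%), 7 under loxapine (18.2%) and 2 under DKI (8.29%), and members lower 11 (27.3%), 21 (44.5%), 8 (22.6%) and 26 (56.3%) in these and 8 (28%) under meclizine. Except where stated, the cause was not tested.

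No paired analysis was possible because there were no replicate numbers to pair, only a single list for each condition. The depth of each list is unknown, so fewer reads and less H3K4me3 cannot be told apart, nor can line, genotype and library between Q7SST and Q111SST. A score threshold applied across lists also carries any difference in scale between them. An absent peak means none within 1 kb in that list, not the absence of the mark.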
